A study of Arabidopsis thaliana with 6 samples.

Results

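YUC2, YUC4 and YUC6 encode flavin monooxygenases of auxin synthesis in Arabidopsis thaliana. They were taken by name as 3 of the 11 genes of the YUC family, each through the probe set of the array that the annotation assigns to that gene alone. Another relative, YUC11, also had a single-gene probe set and is given for comparison. The other YUC genes were not analysed here. Together 13356 genes had such a probe set, and each of the 3 genes had 1.

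Signals came from single-colour ATH1 arrays, 1 array per sample, of the aerial parts of seedlings 10 days after stratification. Seeds of the Col-0 background had been stratified for 2 days and grown on solid MS medium under 16 h of light and 8 h of dark, and shoots were cut 2 h after lights on. 3 arrays were from wild-type plants and 3 from SPT4-R3, RNAi line 3 against SPT4, in the same background. SPT4 forms with SPT5 a factor that travels with RNA polymerase II during transcript elongation. A single RNAi line was used, so an effect of that line cannot be told apart from an effect of SPT4. The samples are labelled biological replicates, with no word on separate sowings, and p-values therefore measure only the spread between these samples.

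Auxin (indole-3-acetic acid) is made from tryptophan in a pair of steps. TAA1-type aminotransferases turn tryptophan into indole-3-pyruvate, and YUC enzymes then convert it to auxin in the step regarded as limiting. In Arabidopsis YUC1, YUC2, YUC4 and YUC6 overlap in function in the shoot, and plants that lack several of them have defects in leaf veins and flowers. Related YUC genes act mainly in roots and seeds, and YUC transcripts respond to light, temperature and developmental regulators.

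The data were examined first as a set of arrays. Array medians lay between 6.49 and 6.53 on the deposited log2 scale, and no 2 arrays held the same values. Arrays correlated at 0.998 to 0.999 within a genotype and at 0.976 to 0.977 between genotypes. SPT4-1 (AT5G08565), the measured SPT4 gene, was lower in SPT4-R3 by a log2 difference of -1.0 ± 0.0753 (SE, n = 3 per genotype; limma, adjusted p = 2.15e-06). The other SPT4 gene, SPT4-2, had no single-gene probe set. SPT5-1 (AT2G34210) read 3.9 in wild type, against 3.92 in SPT4-R3, and did not pass the test (limma, adjusted p = 0.771). The trp control probe sets, which match no plant transcript and are read here as the level of background, lay between 3.46 and 3.84 over all arrays. SPT5-1 lay just above this range, so that a change of its transcript could be hidden. SPT5-2 had no single-gene probe set.

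The 3 YUC genes did not move together in SPT4-R3. YUC2 fell about as far as the RNAi target, YUC6 rose by a smaller amount, and YUC4 did not pass the test. With 2 of the 3 past an adjusted p of 0.05, the count is to be read against 46.3% of all measured genes that passed in either direction. Of these genes 24.7% were higher and 21.6% lower in SPT4-R3. Over all probe sets tested, with or without a gene name, 49.9% passed, made up of 26.4% higher and 23.5% lower.

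YUC2 (AT4G13260, chromosome 4) showed the larger change. Its log2 values were 7.40, 7.37 and 7.52 in wild type. SPT4-R3 gave 6.22, 6.51 and 6.42. Each SPT4-R3 value lay below each wild-type value, with a gap several times the spread within either genotype. The mean went from 7.43 ± 0.0794 (SD, n = 3) to 6.38 ± 0.148, a fall of 1.05 ± 0.0790 (SE), or 2.07-fold (limma, adjusted p = 2.25e-06). The 95% confidence interval of the difference was -1.22 to -0.87. Of the 13356 genes, 291 fell at least as far, which is 2.18%. In both genotypes YUC2 stayed well clear of the trp controls, by 3.81 in wild type and 2.77 in SPT4-R3 on the log2 scale.

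YUC6 (AT5G25620, chromosome 5) moved the other way. Wild-type arrays read 5.22, 5.35 and 5.28, whereas SPT4-R3 arrays read 5.67, 5.66 and 5.59. The genotypes did not overlap here either, and the SPT4-R3 arrays differed little among themselves. The mean rose from 5.28 ± 0.0651 (SD, n = 3) to 5.64 ± 0.0436, a difference of 0.36 ± 0.0564 (SE), or 1.28-fold (limma, adjusted p = 0.000424). Its 95% confidence interval was 0.23 to 0.48. A rise at least this large was found in 1941 genes, or 14.5%. For groups that do not overlap, as in YUC2 and YUC6, the share over all genes was 51.7%. The signal of YUC6 was 1.66 above the mean of the trp controls in wild type and 2.03 above it in SPT4-R3.

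YUC4 (AT5G11320, chromosome 5) was close to background in both genotypes. The wild-type values were 4.07, 4.16 and 4.11, and the SPT4-R3 values 4.41, 4.09 and 4.19. The genotypes overlapped, since SPT4-R3 replicate 2 lay inside the wild-type range while replicate 1 stood above the other arrays. The means were 4.11 ± 0.0451 (SD, n = 3) and 4.23 ± 0.164, a difference of 0.12 ± 0.0795 (SE; limma, adjusted p = 0.258) with a 95% confidence interval of -0.06 to 0.29. Without SPT4-R3 replicate 1 the difference was 0.03 (adjusted p = 0.768 in limma). The probe set lay only 0.49 above the mean of the trp controls in wild type and 0.62 in SPT4-R3, so that a change of the transcript could be hidden at this signal.

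YUC11 (AT1G21430), the relative outside the trio, was also close to background. Wild type gave 4.2, 4.18 and 3.98, SPT4-R3 gave 4.24, 4.36 and 4.13, and the genotypes overlapped. The difference was 0.12 ± 0.0788 (SE) and did not pass the test (limma, adjusted p = 0.228). Among the 4 measured YUC genes there was thus 1 fall, 1 rise and 2 that did not pass, all on the deposited scale.

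**Figure D1:**
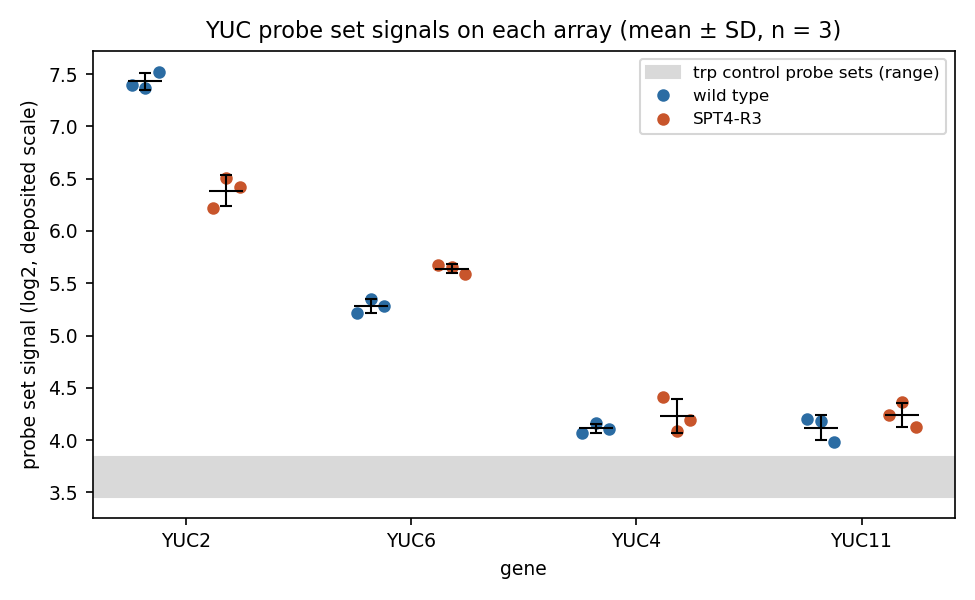
Probe set signal (log2, deposited scale) of the measured YUC genes on each of the 6 arrays, with the mean and SD per genotype (n = 3) and the trp controls as a grey band. YUC2 is lower on all 3 SPT4-R3 arrays, YUC6 is higher on all 3, and YUC4 and YUC11 sit just above the grey band in both genotypes.

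Directions follow the deposited scale, where all probe sets together had a median difference of -0.003. The bacterial bioB, bioC and bioD controls were lower on the SPT4-R3 arrays, and centring each array on their 14 probe sets moved that median to 0.39. Under this scaling YUC2 was still called lower, by 0.65, and YUC6 still higher, by 0.75. YUC4 then rose by 0.51 (adjusted p = 2.39e-06 in limma) and YUC11 by 0.52. Every gene followed had the same SE in this fit, 0.104, and likewise 0.121 under centring on the poly-A controls. The fit thus took a common spread as if known exactly, though it rests on 3 arrays against 3. A shift of an array is also shared by all its genes. P-values and calls under both scalings therefore look surer than the arrays allow. Against the shifted median, the YUC4 difference was as small as on the deposited scale.

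A comparison free of such shifts is the difference between a pair of YUC probe sets on the same array, since a shift of the whole array cancels in it. It asks whether the genes responded unequally, and says nothing of which transcript is more abundant. All 3 pairs were compared. They share genes and are not separate results. For groups that do not overlap, the share was 51.7% over single genes and was not computed over pairs of genes. With 3 arrays against 3 the exact permutation test cannot go below 0.1, two-sided, so none could pass 0.05.

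On the log2 scale YUC2 stood above YUC6 by 2.18, 2.02 and 2.24 in wild type, but by 0.55, 0.85 and 0.83 in SPT4-R3. The gap was smaller on every SPT4-R3 array than on any wild-type array, going from 2.15 ± 0.114 (SD, n = 3) to 0.74 ± 0.168. The change of 1.40 is a 2.65-fold shift in the ratio of the signals of these genes (exact permutation p = 0.1, and 0.1 adjusted over the 3 pairs).

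YUC2 stood above YUC4 by 3.33, 3.21 and 3.41 in wild type, but by 1.81, 2.42 and 2.23 in SPT4-R3. These groups did not overlap either, and the SPT4-R3 arrays were more scattered, with an SD of 0.312 against 0.101. The mean gap narrowed by 1.16 (exact permutation p = 0.1, adjusted 0.1). YUC4 minus YUC6 was -1.15, -1.19 and -1.17 in wild type, against -1.26, -1.57 and -1.40 in SPT4-R3, a change of -0.24 (exact permutation p = 0.1, adjusted 0.1). This value was lower on each SPT4-R3 array than on any wild-type array. YUC4 itself did not pass the test, and a signal near background is compressed and can understate a change.

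**Figure D2:**
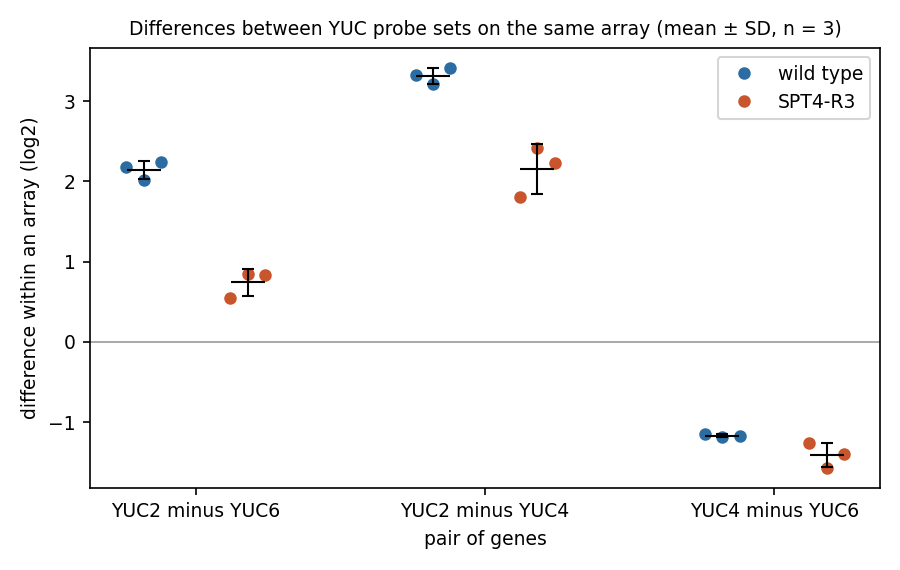
Difference in log2 signal between pairs of YUC probe sets measured on the same array, with the mean and SD per genotype (n = 3). The wild-type and SPT4-R3 arrays separate for all 3 pairs, which are tied to each other, most widely for YUC2 minus YUC6. Groups did not overlap in 51.7% of single genes, and the share over pairs of genes was not computed.

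The make-up of the summed signal changed with these differences. Signals were taken back to the linear scale and each gene was given as a share of the sum of the 3. Probes bind with different strength, so these are shares of signal and do not rank the transcripts. YUC2 made up 75.8%, 73.8% and 76.6% of the sum in wild type, but 50.8%, 57.4% and 56.3% in SPT4-R3. Its share went from 75.4% ± 1.42 (SD, n = 3) to 54.8% ± 3.54 (exact permutation p = 0.1). YUC6 made up 16.7%, 18.2% and 16.2% in wild type, but 34.7%, 31.9% and 31.7% in SPT4-R3, a mean of 17.0% against 32.7% (exact permutation p = 0.1). YUC4 went from 7.57% ± 0.388 to 12.4% ± 1.91 (exact permutation p = 0.1), with its own signal not past the test. Shares of 1 sum are tied to each other, and these 3 are not separate results.

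The sum itself was lower on each SPT4-R3 array. It was 223, 224.1 and 240 in wild type, against 147, 159 and 152 in SPT4-R3, in linear units of the deposited signal. YUC2 dropped by 88.9 of these units, while YUC6 gained 10.9 and YUC4 gained 1.53. Subtracting the trp control signal of the same array first raised the YUC2 share to 83.5% in wild type and 61.7% in SPT4-R3, and lowered that of YUC4 to 2.59% and 5.76%. The same subtraction, added after the data were seen, gave a difference of -1.17 for YUC2, 0.50 for YUC6 and 0.36 for YUC4 on the log2 scale, the last with an SD of 0.329 within genotypes.

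**Figure D3:**
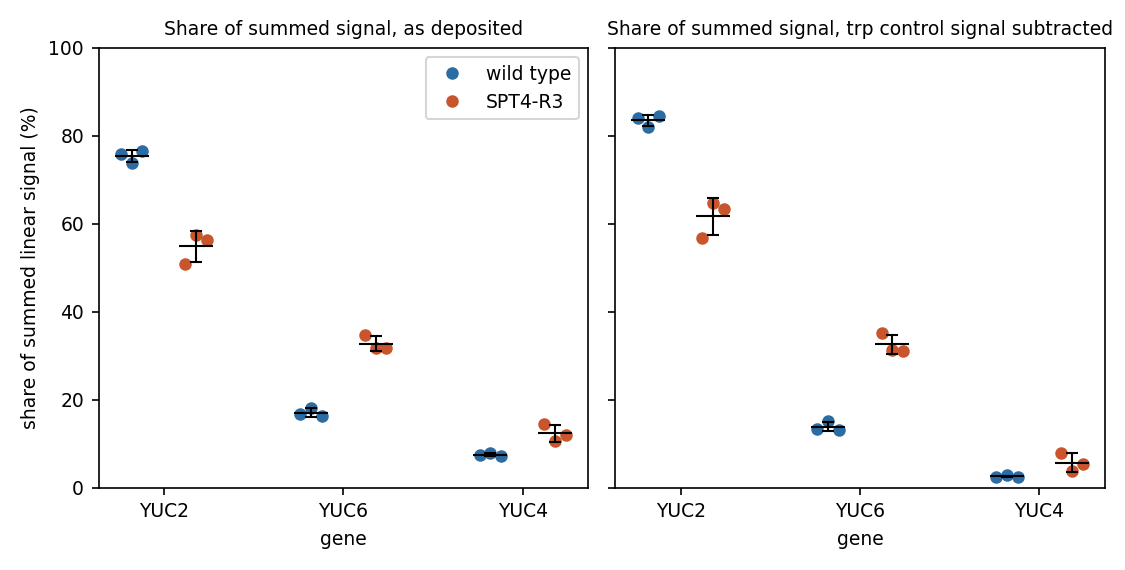
Share of the summed linear signal (%) held by each YUC gene on each array, as deposited (left) and after subtraction of the trp control signal (right), with the mean and SD per genotype (n = 3). The YUC2 share is lower and the YUC6 share higher on all SPT4-R3 arrays in both panels.

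Genes before and after the YUC step were sparsely covered. Of 95 entries in 7 lists on auxin synthesis, its control, inactivation, transport and response, 20 had a single-gene probe set, and no aminotransferase of the TAA1 step was among them. Of the 20 genes, 6 rose, 8 fell and 6 did not pass the test, with a median difference of -0.09 against -0.003 over all genes. Over all genes 46.3% passed, 24.7% higher and 21.6% lower. Centring on bioB, bioC and bioD made this 12 higher and 5 lower, beside 17406 of 22746 probe sets higher and 1589 lower under the same scaling. In the supply of precursor, both measured genes of tryptophan synthesis rose, against 24.7% of all genes. IGPS (AT2G04400), for indole-3-glycerol phosphate synthase, rose by 0.24 ± 0.0553 (SE; limma, adjusted p = 0.00502), and INS (AT4G02610), an indole synthase related to the alpha subunit of tryptophan synthase, by 0.32 ± 0.0713 (limma, adjusted p = 0.00402). For both, all SPT4-R3 values lay above all wild-type values, and groups did not overlap in 51.7% of all genes.

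Among the known regulators of YUC genes, 4 of 20 were measured, of which 2 rose, 1 fell and 1 did not pass, where 46.3% of all genes passed in either direction. IDD16 (AT1G25250), a zinc finger protein of a group that acts on auxin synthesis and transport genes, read 4.12, 4.24 and 4.08 in wild type, against 5.79, 5.75 and 5.76 in SPT4-R3. It went from near the trp controls to a clear signal on each SPT4-R3 array, a rise of 1.62 ± 0.0579 (SE; limma, adjusted p = 1.45e-08). SHI (AT5G66350) belongs to the family of STY1, a direct activator of YUC4. It rose by 0.33 ± 0.0662 (limma, adjusted p = 0.00188), from values of 5.09 to 5.21 up to values of 5.37 to 5.58. EIN3 (AT3G20770), a transcription factor of ethylene response, fell by 0.22 ± 0.0527 (limma, adjusted p = 0.00529). That call was lost under the poly-A controls (-0.074, adjusted p = 0.648), and under bioB, bioC and bioD the value was 0.17 and did not pass (adjusted p = 0.115). The remaining regulator, SPL (AT4G27330), read 4.14 in wild type and 4.09 in SPT4-R3 and did not pass (limma, adjusted p = 0.576). It was near the trp controls, where a change could be hidden.

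Downstream of synthesis, 9 of 20 genes of auxin conjugation and inactivation were measured, of which 5 fell, 2 rose and 2 did not pass, beside 21.6% of all genes lower and 24.7% higher. The median was -0.36. GH3.5, which joins auxin to amino acids, fell by 1.69 ± 0.0755 (SE; limma, adjusted p = 6.02e-08), GH3.17, which prefers glutamate, fell by 0.69, and their relative GH3.9 (AT2G47750) rose by 0.58. Of the other measured GH3 genes, GH3.1 (AT2G14960) fell by 0.36. GH3.3 (AT2G23170) read 7.84 in wild type and 7.90 in SPT4-R3 and did not pass (limma, adjusted p = 0.391). UGT74D1 (AT2G31750), of the same list, fell by 0.51 (limma, adjusted p = 5.05e-05). The neighbouring oxidase genes of auxin breakdown went opposite ways. DAO2 (AT1G14120) read 6.27, 6.58 and 6.65 in wild type, against 5.49, 5.38 and 5.49 in SPT4-R3, a fall of 1.05 ± 0.0924 (limma, adjusted p = 6.75e-06). DAO1 (AT1G14130), named after its values were seen, read 6.17, 6.42 and 6.36 in wild type, against 6.89, 6.81 and 6.52 in SPT4-R3, a rise of 0.42 ± 0.0996 (limma, adjusted p = 0.00519). The pair resemble each other in sequence, and whether their probes cross-hybridise was not tested.

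Of auxin transport, WAG2 (AT3G14370), a kinase acting on PIN carriers, was the single gene measured of 19. It read 4.34 in wild type and 4.43 in SPT4-R3 and did not pass the test (limma, adjusted p = 0.238), but was called higher under bioB, bioC and bioD, by 0.48 (adjusted p = 9.12e-06). Of the early auxin response list, 4 of 11 genes were measured and 2 fell, beside 21.6% of all genes, IAA29 by 4.62 and HAT2 by 3.41, both far beyond the fall of YUC2. The other two did not pass and were little above the trp controls. This list, like the others, was chosen with earlier results of these data known, so its count is no independent support.

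**Figure D4:**
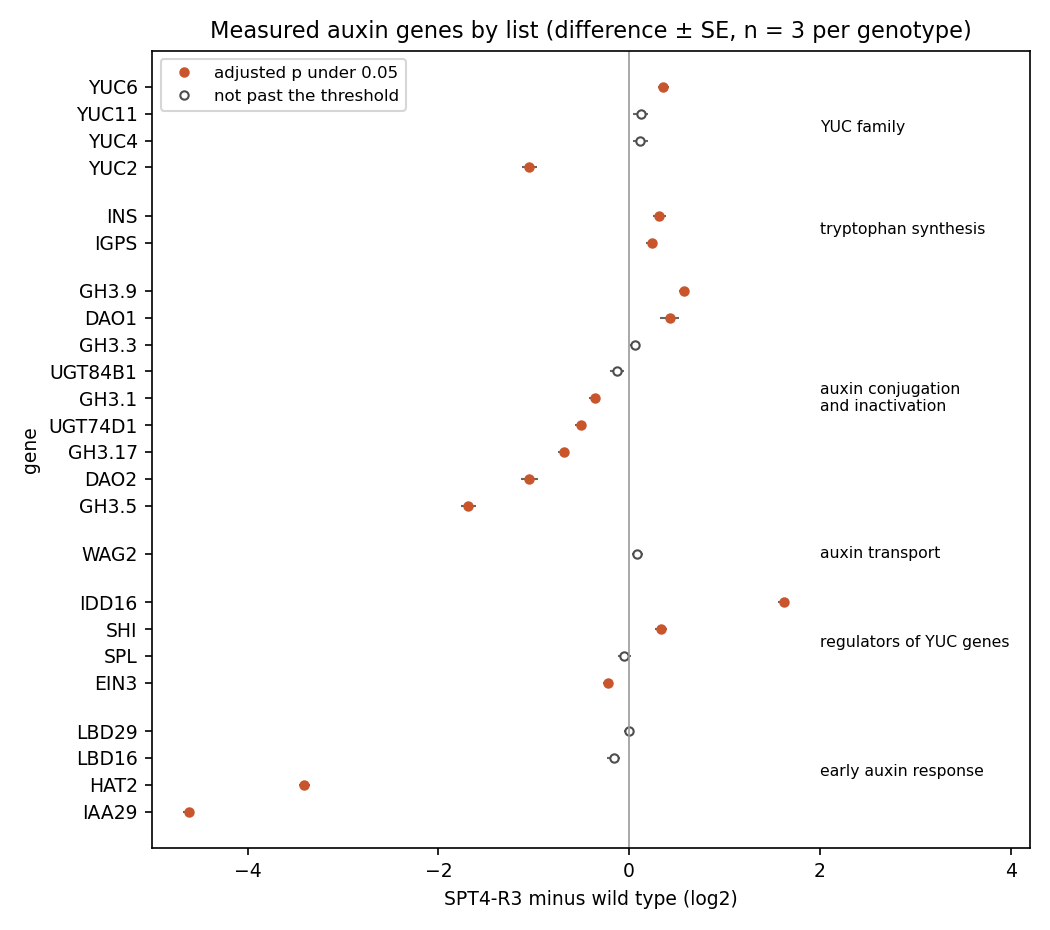
Difference between SPT4-R3 and wild type (log2, ± SE, n = 3 per genotype) for each measured gene of the YUC family and of the auxin lists. Filled points passed an adjusted p of 0.05 in limma. The YUC, conjugation and regulator groups each hold changes in both directions.

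Markers of tissue were read beside these results, and their counts are to be read against 21.6% of all genes lower and 24.7% higher. Both measured green leaf markers were bright and lower in SPT4-R3, LHCB4.2 by 1.14 and LHCB4.1 by 0.51 (the latter not called under centring on bioB, bioC and bioD, at -0.12), and the summed linear signal of the pair was 29336 to 30200 in wild type, against 16707 to 17333 in SPT4-R3. Of 3 measured epidermal genes 2 fell, FAMA (AT3G24140), a regulator of guard cell fate, by 1.42 ± 0.150 (SE; limma, adjusted p = 2.46e-05) and MUTE (AT3G06120), which acts before it, by 0.29, though the call of MUTE was lost under the poly-A controls (-0.14, adjusted p = 0.365) and its value was 0.103 under bioB, bioC and bioD. The remaining gene, SPCH (AT5G53210), read 5.80 in wild type and 5.84 in SPT4-R3 and did not pass (limma, adjusted p = 0.785). The sum over these 3 genes was 213 to 267 in wild type and 133 to 147 in SPT4-R3. FAMA was the brightest of them in wild type, at 7.36. The meristem gene CLV3 (AT2G27250) was near the trp controls, at 3.95 and 3.98 (limma, adjusted p = 0.770; called at 0.42 under bioB, bioC and bioD), and no flower or seed marker had a single-gene probe set in the annotation used. On the deposited scale none of 4 root markers passed in limma, nor at an unadjusted p under 0.05. Among them PYK10, a root beta-glucosidase gene, was bright at 11.8 in both genotypes, with a difference of -0.02, and EXPA7 differed by -0.12. Centred on bioB, bioC and bioD, both were called higher, PYK10 by 0.377 (adjusted p = 0.000478) and EXPA7 by 0.277 (adjusted p = 0.00997), each less than the shift of 0.39 in the median of all probe sets. The summed root signal was 3412 to 3704 in wild type and 3454 to 3600.0 in SPT4-R3. This sum is almost wholly that of PYK10, since the other root markers read only 4.23 to 5.14 in wild type. PYK10 was bright although aerial parts were sampled, and why was not tested. In whole shoots, fewer cells of a type and less RNA per cell cannot be told apart, and the part of these markers in the YUC2 and YUC6 differences was not tested.

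The genes whose profiles lay closest to each YUC gene were found by the root mean square difference between log2 profiles over the 6 arrays, each centred on its own mean. With 2 genotypes, such a profile is mostly the size of the genotype difference. Only genes with a symbol other than their locus were named, 4 per YUC gene. YUC2 had few close profiles, with 47 of 13355 other genes within 0.1, or 0.352%. The closest named ones were ATSBT5.2 (AT1G20160), a subtilisin-type protease gene, at 0.0785, and SDP1 (AT5G04040), a lipase of storage oil breakdown, at 0.0795. STOMAGEN (AT4G12970), a peptide from leaf mesophyll that promotes stomata, followed at 0.0831, and SP1L4 (AT5G15600) at 0.0873. Their falls were between 0.94 and 1.16.

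YUC6 and YUC4 had many close profiles. For YUC6, 1288 genes lay within 0.1, or 9.64%. The closest named ones were LSM1B (AT3G14080), of the complex that leads transcripts to decapping, at 0.0213, PIFI (AT3G15840), a chloroplast protein, at 0.0345, GT72B1 (AT4G01070) at 0.0350 and UGT78D1 (AT1G30530), a flavonol glycosyltransferase, at 0.0356. These 4 rose by 0.32 to 0.36. For YUC4, 1186 genes or 8.88% lay within 0.1, and the closest named were NCLPP7 (AT5G23140) at 0.0313, the sugar transporter gene SWEET10 (AT5G50790) at 0.0471, TRM31 (AT5G58630) at 0.0499 and PyrD (AT4G20960), of riboflavin synthesis, at 0.0525. On the deposited scale none of these 4 passed the test, with differences of 0.05 to 0.15 (limma, adjusted p of 0.204 to 0.583). Like YUC4, all 4 were called higher under bioB, bioC and bioD, by 0.44 to 0.54, and NCLPP7 also under the poly-A controls (0.30, adjusted p = 0.0367). Chosen for profiles close to YUC4, they had to follow it under a shift of whole arrays. Under bioB, bioC and bioD 17406 of 22746 probe sets were called higher.

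On the deposited scale the nearest measured genes along the chromosome did not move as YUC2 and YUC6 did. Directly beside YUC2, with no protein-coding gene between, AT4G13270 read 8.19 in wild type and 8.18 in SPT4-R3 (limma, adjusted p = 0.878). On the other side AT4G13230, with 6 protein-coding genes between, differed by -0.13 and did not pass (limma, adjusted p = 0.0619). It was called lower, by 0.15, under centring on the array median (adjusted p = 0.0407), and higher, by 0.26, under bioB, bioC and bioD (adjusted p = 0.0155). Directly beside YUC6, AT5G25630 fell by 0.68 ± 0.0588 (SE; limma, adjusted p = 6.03e-06), opposite to YUC6, and AT5G25590 read 7.20 in both genotypes (limma, adjusted p = 1). Around YUC4, AT5G11340 rose by 0.45 ± 0.0609 (SE; limma, adjusted p = 0.000138) and AT5G11290, at 3.6 and 3.68, lay within the values of the trp controls. Under bioB, bioC and bioD, AT4G13270 (0.377), AT5G25590 (0.39) and AT5G11290 (0.48) were called higher as well.

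Plotted among all genes, YUC2 was 1 of the 291 genes with a fall of this size, while YUC4 and YUC11, at 0.12, lay among genes of low signal with small differences.

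**Figure D5:**
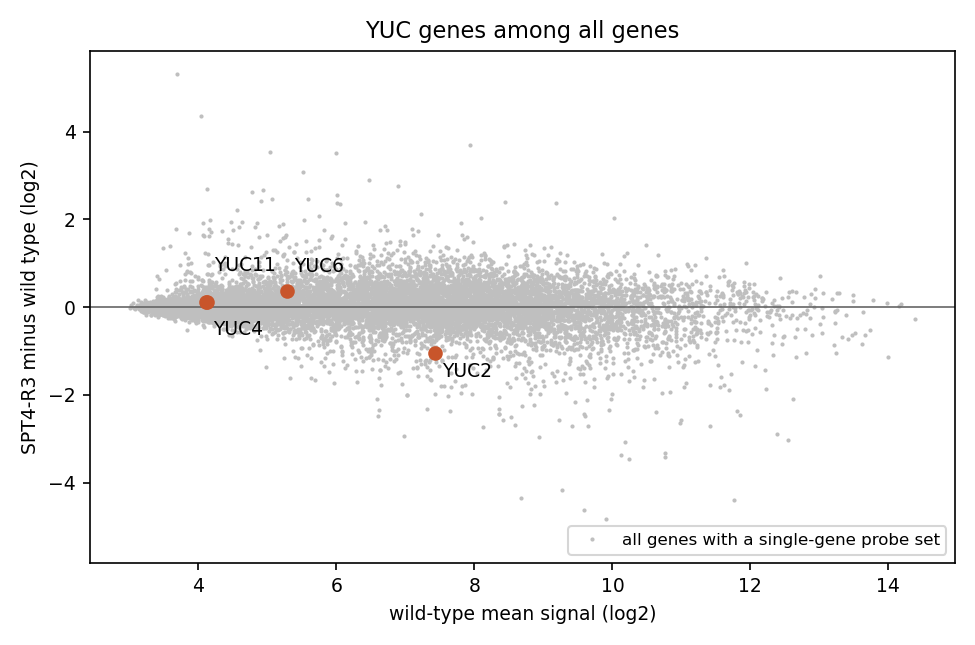
Difference between SPT4-R3 and wild type (log2) against the wild-type mean signal (log2) for 13356 genes in grey, with the YUC genes in red. YUC2 is at -1.05 below the bulk of the points, YUC6 at 0.36 is in its upper part, and YUC4 and YUC11 at 0.12 overlie each other at the dim end.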

How the data were processed

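The authors deposited 1 log2 value per probe set and array. The log2 scale was read from the values. Affymetrix Expression Console is the software per the submitters' processing notes, and its background and normalization settings are not stated there. No detection call or batch was used. Of 22810 probe sets, 64 controls were left out and 22746 tested with lmFit and eBayes of limma 3.58.1, run in R 4.3.3 (two-sided, Benjamini-Hochberg over all 22746, threshold 0.05). SEs and confidence intervals are those of the moderated fit. By the annotation, 13513 probe sets had 1 gene, 503 several and 8730 none. The brightest single-gene probe set stood for each gene, and 13286 of 13356 genes were matched to RefSeq symbols (TAIR10.1 table) by Entrez identifier. Lists were matched by locus, and 36 of 156 entries in 16 lists were measured, none of them among other routes to auxin or other flavin monooxygenases. Exact permutation tests over the 6 arrays used SciPy 1.17.1. The fit was tested on simulated data.

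The genes and lists were chosen with earlier results of these data known. Named were all measured YUC, SPT4 and SPT5 genes, up to 4 called members of each list with the smallest p (2 where none passed), the 4 closest profiles with a symbol, and the measured neighbours. GH3.1, GH3.3, UGT74D1, SPL and SPCH were named besides these, after their values were seen, and are outside the counts of named genes below. DAO1 was also named after its values were seen, but is inside those counts. Arrays carry no counts, so their number limits the precision. Alternatives were 4 other scalings, a filter on dim probe sets, another variance model, the replicate number as a block and each array left out in turn. Trp control subtraction for single genes and YUC11 in the sum were added after the data were seen.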

Additional observations from a re-analysis of the deposited data

How the results depend on the processing

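The fall of YUC2 and the rise of YUC6 were called under every scaling, filter, variance model and left-out array that was run. Leaving out 1 array gave -1.11 to -0.96 for YUC2, 0.33 to 0.39 for YUC6 and 0.03 to 0.19 for YUC4. YUC4 was called under centring on bioB, bioC and bioD, at 0.51, and could not be fitted without the dimmest 30% of probe sets. Subtracting the trp signal gave -1.17 for YUC2, 0.36 for YUC4 and 0.50 for YUC6. With arrays centred on the bioB, bioC and bioD controls 17406 probe sets were higher and 1589 lower, against 6007 and 5344 on the deposited scale, and 12 higher and 5 lower auxin list genes against 6 and 8. Centring on the poly-A controls gave 6926 higher and 2478 lower probe sets. Under either of these centrings the genes followed shared a common SE, so such calls look surer than the arrays allow. Of the calls, 52.9% were higher on the deposited scale, 91.6% under bioB, bioC and bioD and 73.6% under the poly-A controls. The within-array differences and shares kept their direction under each alternative run for them.

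Same-numbered arrays did not deviate together (correlations of -0.24, -0.126 and -0.0645), so the replicate numbers were not taken as pairs. With the replicate number as a block, YUC2 (-1.05), YUC6 (0.36) and the 41 other named genes kept their calls, 5663 probe sets were higher and 5007 lower, and the paired sign-flip test cannot go below 0.25.

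Among other named genes, directions turned mainly in small differences. Under bioB, bioC and bioD these were EIN3 at 0.17, MUTE 0.103, PYK10 0.377, EXPA7 0.277, AT4G13230 0.26 and AT4G13270 0.377, and under the poly-A controls PYK10 0.133, EXPA7 0.0328, AT4G13230 0.0161 and AT4G13270 0.133. With 1 array left out, CLV3 ranged from -0.02 to 0.085, PYK10 from -0.0533 to 0.0067, PyrD from -0.005 to 0.105 and AT4G13270 from -0.0733 to 0.0467, none of them past the test on all 6 arrays on the deposited scale. Under bioB, bioC and bioD, all 14 named genes beside YUC4 that did not pass on the deposited scale were called higher, by 0.26 (AT4G13230) to 0.54 (NCLPP7), SPT5-1 at 0.41 and YUC11 at 0.52 among them, and the calls of EIN3, MUTE and LHCB4.1 were lost. Poly-A centring lost EIN3 (-0.074) and MUTE (-0.14) and gained NCLPP7 (0.30), and array-median centring gained AT4G13230 (-0.15). Apart from the scalings, the cause was not tested.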
